A study of Mus musculus with 9 samples.

Results

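The 10 genes described here are typical of alveolar-type macrophages, the resident macrophages of the air spaces of the lung: *Chil3*, *Car4*, *Marco*, *Fabp4*, *Pparg*, *Itgax*, *Siglecf*, *Krt79*, *Plet1* and *Slco4a1*. They are 10 of the 53801 genes in the count table and 10 of the 22452 genes that passed the filter on low counts. They were chosen by measured values, the CPM of *Chil3* and *Car4* with each PRMT5 construct against 4OHT alone in these libraries, so the levels against 4OHT alone are given as a description, without a test. Of these, 9 rows were found by symbol, and *Siglecf* by its identifier ENSMUSG00000039013, which the table carries under the symbol *Siglec5*.

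RNA-seq was performed on cultured mouse spermatogonial stem cells (SSCs), the stem cells of the male germline, in 9 libraries of 3 groups with 3 libraries each. The cells derive from *Prmt5* flox/flox; *Rosa26-CreERT2* mice, in which the ubiquitously active *Rosa26* locus drives the tamoxifen-inducible Cre. All groups received 4-hydroxytamoxifen (4OHT) at 1 µM to delete *Prmt5*, the gene of a protein arginine methyltransferase. The first group had 4OHT alone, and the other groups overexpressed a PRMT5 construct in addition. The labels abbreviate the constructs as MU and OE. These were read as the catalytically dead PRMT5 (E444Q) and as PRMT5 (WT), called E444Q and WT here, and what follows depends on this reading. The ethanol-treated control was not analysed here, and the strain and age of the donor mice, the day of sampling and whether libraries of a group came from separate cultures are not given in the sources used here. P-values therefore measure the spread between these libraries, which may be technical. The source is labelled as 1 cell line. SSC cultures of this kind are grown on feeder layers of mouse embryonic fibroblasts.

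Alveolar macrophages clear surfactant and inhaled particles. Their state is set by GM-CSF from the lung epithelium and by TGF-beta, which induce the nuclear receptor PPARG, and PPARG turns on genes of lipid uptake and handling. They are known for high *Chil3*, *Car4*, *Marco*, *Fabp4*, *Siglecf* and *Itgax*, a combination that separates them from the complement-rich resident macrophages of most other tissues.

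Total counts per library were 78751996 to 95370711 with 4OHT alone, 192033300 to 365719548 with E444Q and 79941857 to 154557863 with WT. Every E444Q library was thus deeper than every library of the other groups. Levels are given as CPM, counts scaled by library size and TMM factor. A count of 3 corresponded to 0.00793 to 0.0395 CPM, and since 4 counts occurred 1.35 to 1.84 times as often as the mean of 3 and 5 counts, a read pair was taken as about 4 counts. The third 4OHT library differed most from its replicates (chi-square per gene of 12.7 and 18.3, against 5.82 between the other 4OHT libraries). The changes of *Itgax*, *Fabp4* and *Marco* against 4OHT alone are given below with and without it. *Prmt5* itself (ENSMUSG00000023110, chr14:54507187-54517525, minus strand, GRCm38) was at 31.9, 30.8 and 28.2 CPM with 4OHT alone, at 145, 147 and 146 CPM with E444Q and at 1072, 1071 and 1085 CPM with WT. Its mRNA was thus 7.36-fold lower with E444Q than with WT, and an effect of the mutation and an effect of the amount cannot be told apart. By western blot, the paper reports that PRMT5 protein was brought back by both constructs, and protein is not measured here. Reads of the endogenous gene and of the construct cannot be separated in these counts, so they do not check the deletion.

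The members differed widely in level and in how they followed the constructs. *Chil3*, *Car4*, *Slco4a1* and *Pparg* were higher with both constructs than with 4OHT alone and were 2.00-fold to 5.61-fold lower with E444Q than with WT. *Fabp4*, *Marco* and *Plet1* were higher with both constructs than with 4OHT alone, by 1.70-fold to 5.16-fold in the fit of all 9 libraries, with no difference between the constructs that passed the test. *Itgax*, *Siglecf* and *Krt79* stayed at or below 1.30 CPM in every library. The values thus went with the name of the set only in part, since *Itgax* and *Siglecf*, the surface markers by which alveolar macrophages are identified, were among the lowest.

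*Chil3* (ENSMUSG00000040809, chr3:106147554-106167564, minus strand) encodes Ym1, a secreted chitinase-like lectin. It was measured at 8.29, 7.04 and 8.75 CPM with 4OHT alone, at 953, 973 and 931 CPM with E444Q, and at 1654, 2041 and 2033 CPM with WT. The 3 groups did not overlap, and the lowest library with a construct lay far above the highest with 4OHT alone. Means were 8.03 ± 0.883, 952 ± 21.2 and 1909 ± 221 CPM (SD, n = 3 each). The fitted level was 119-fold higher with E444Q and 238-fold higher with WT than with 4OHT alone (log2 fold change 6.89, SE 0.106, and 7.89, SE 0.110). Between the constructs the log2 fold change was -1.003 (SE 0.0803), and the difference passed the test (edgeR quasi-likelihood test, Benjamini-Hochberg adjusted p = 1.09e-05). Since the set was chosen on *Chil3* and *Car4* in these same libraries, the p-values of these genes are not independent of that choice. In bulk RNA, fewer cells of a type and less RNA per cell cannot be told apart, which holds for each difference below.

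*Car4* (ENSMUSG00000000805, chr11:84957786-84966044, plus strand) encodes carbonic anhydrase 4, which is anchored to the outer face of the membrane. Its levels were 0.158, 0.335 and 0.190 CPM with 4OHT alone, from only 12, 28 and 17 counts. They were 14.3, 14.9 and 13.9 CPM with E444Q and 77.6, 83.2 and 81.2 CPM with WT. The gene went from a few read pairs to a level that was tight between replicates in both construct groups. Log2 fold changes against 4OHT alone were 5.97 (SE 0.137) with E444Q and 8.46 (SE 0.135) with WT, and 6.36 and 8.85 without the second 4OHT library, the highest of its group. *Car4* was 5.61-fold lower with E444Q than with WT (log2 fold change -2.49, SE 0.0834, edgeR adjusted p = 1.32e-09), the widest gap between the constructs among the members.

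*Slco4a1* (ENSMUSG00000038963, chr2:180456245-180474867, plus strand) encodes an organic anion transporter. It was at 3.95, 4.05 and 4.65 CPM with 4OHT alone, at 6.97, 7.83 and 7.71 CPM with E444Q, and at 35.4, 38.7 and 36.5 CPM with WT. The groups did not overlap, and most of the gap lay between the constructs. The log2 fold change between them was -2.30 (SE 0.0853, edgeR adjusted p = 3.80e-09), a level 4.91-fold lower with E444Q, while against 4OHT alone it was 0.83 (SE 0.0879) with E444Q and 3.13 (SE 0.0916) with WT.

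The sequences just upstream of these 3 genes, those with the widest range over the groups or between the constructs, are shown as the 250 bases before the start of the RefSeq transcript (GRCm38.p6, 5′ to 3′ on the gene's strand). They lie at chr3:106167565-106167814 (minus strand), chr11:84957504-84957753 (plus strand, ending 32 bases before the gene start used above) and chr2:180455995-180456244 (plus strand). Capitals mark the letters AGGAAG, a core bound by ETS factors such as PU.1, here read on the opposite strand.
Chil3: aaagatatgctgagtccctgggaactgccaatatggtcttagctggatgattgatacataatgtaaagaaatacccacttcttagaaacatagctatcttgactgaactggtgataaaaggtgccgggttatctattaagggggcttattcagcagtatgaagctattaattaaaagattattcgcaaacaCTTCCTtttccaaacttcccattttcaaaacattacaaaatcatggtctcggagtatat
Car4: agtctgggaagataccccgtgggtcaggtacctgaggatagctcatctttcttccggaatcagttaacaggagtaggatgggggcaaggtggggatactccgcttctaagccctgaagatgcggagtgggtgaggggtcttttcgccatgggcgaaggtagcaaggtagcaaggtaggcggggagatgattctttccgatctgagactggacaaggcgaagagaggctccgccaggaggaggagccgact
Slco4a1: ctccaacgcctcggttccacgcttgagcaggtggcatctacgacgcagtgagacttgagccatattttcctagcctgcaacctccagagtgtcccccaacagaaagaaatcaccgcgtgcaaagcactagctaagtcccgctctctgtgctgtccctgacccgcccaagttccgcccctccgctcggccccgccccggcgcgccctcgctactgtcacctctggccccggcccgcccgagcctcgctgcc
The *Chil3* window held 36.4% G and C, against 56.4% for *Car4*, 64.8% for *Slco4a1* and a median of 52.4% over all windows of this length. In RefSeq 9 members had 12 such windows, and *Fabp4* had none. Both strands were searched for GAGGAA and AGGAAG, which can overlap by 5 letters, and for AGGTCA, the half-site of nuclear receptors such as PPARG. GAGGAA was in 3 of the 12 windows, from 3 members (*Marco*, *Pparg* and *Siglecf*), and in 23.3% of all 32851 windows. AGGAAG was in 3 of the 12 windows, from 3 members (*Chil3*, *Marco* and *Siglecf*), and in 29.5% of all windows. AGGTCA was in 4 of the 12 windows, from 3 members, and in 14.02% of all windows. These members were *Pparg*, *Plet1* and *Slco4a1*, the last in a second window that is not shown. A match describes the letters of a window and says nothing of binding.

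*Pparg* (ENSMUSG00000000440, chr6:115360951-115490399, plus strand), the nuclear receptor of the list, was at 0.382, 0.275 and 0.402 CPM with 4OHT alone. It was at 1.87, 2.04 and 2.41 CPM with E444Q and at 4.79, 4.26 and 6.25 CPM with WT. All 3 groups were apart, at levels far below those of *Chil3*. Log2 fold changes against 4OHT alone were 2.58 (SE 0.222) with E444Q and 3.85 (SE 0.227) with WT. *Pparg* was 2.42-fold lower with E444Q than with WT (log2 fold change -1.28, SE 0.189, edgeR adjusted p = 0.00148). A short gene on the opposite strand of *Pparg*, *Gm44079*, was at 0, 0.00882 and 0.0164 CPM in the 3 groups, and whether counting kept the strand is not given in the sources used here.

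*Fabp4* (ENSMUSG00000062515, chr3:10204088-10208576, minus strand), a fatty acid carrier and target of PPARG that adipocytes and endothelial cells also express, was well detected in every library. Its levels were 18.2, 16.9 and 12.6 CPM with 4OHT alone, 27.1, 26.7 and 27.0 CPM with E444Q, and 27.4, 30.0 and 29.9 CPM with WT. Each construct group lay above 4OHT alone, by a log2 fold change of 0.76 (SE 0.107) and 0.87 (SE 0.108). Without the third 4OHT library these changes were 0.61 and 0.72. All E444Q libraries were also below all WT libraries, but the log2 fold change of -0.11 (SE 0.104) did not pass the test (edgeR adjusted p = 0.751).

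*Marco* (ENSMUSG00000026390, chr1:120474538-120505024, minus strand) encodes a scavenger receptor that binds bacteria and particles. It was at 1.48, 1.602 and 0.680 CPM with 4OHT alone, at 2.34, 2.36 and 2.07 CPM with E444Q, and at 2.07, 3.91 and 2.43 CPM with WT. The construct groups lay above 4OHT alone and overlapped each other, with a log2 fold change between them of -0.31 (SE 0.287, edgeR adjusted p = 0.746). Against 4OHT alone the log2 fold change was 0.85 (SE 0.297) with E444Q and 1.17 (SE 0.301) with WT. Without the third 4OHT library it was 0.54 and 0.85. *Plet1* (ENSMUSG00000032068, chr9:50494525-50505482, plus strand), a membrane-anchored protein also known from epithelial progenitors, was at 0.593, 0.478 and 0.3904 CPM with 4OHT alone, at 1.81, 2.44 and 2.31 CPM with E444Q, and at 2.46, 2.76 and 2.31 CPM with WT. Its log2 fold change was 2.17 (SE 0.219) and 2.37 (SE 0.221) against 4OHT alone. Between the constructs the groups overlapped, and the difference of -0.19 did not pass the test (SE 0.197, edgeR adjusted p = 0.779). *Plet1os*, which overlaps *Plet1* on the opposite strand, averaged 0.0712, 0.202 and 0.141 CPM in the 3 groups.

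The remaining members stayed at or below 1.30 CPM in every library. *Itgax* (ENSMUSG00000030789, chr7:128129547-128150657, plus strand) encodes CD11c, the integrin chain by which alveolar macrophages are usually sorted. It was at 0.145, 0.0956 and 0.346 CPM with 4OHT alone, at 0.379, 0.563 and 0.383 CPM with E444Q, and at 1.30, 0.802 and 1.16 CPM with WT. The groups did not overlap, but the third 4OHT library, at 31 counts, almost reached the E444Q libraries. The log2 fold change against 4OHT alone was 1.16 (SE 0.440) with E444Q and 2.46 (SE 0.448) with WT, and 1.88 and 3.17 without that library. Between the constructs it was -1.30 (SE 0.406), which did not pass the test (edgeR adjusted p = 0.136). The adjusted p of *Itgax* ranged from 0.0182 to 0.414 over the alternatives, and it passed the test without the third 4OHT library (0.0348).

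*Siglecf* (chr7:43351341-43359531, plus strand) encodes a sialic acid-binding lectin that eosinophils also carry. It was at 0.119, 0.203 and 0.268 CPM with 4OHT alone, at 0.410, 0.304 and 0.475 CPM with E444Q, and at 0.591, 0.780 and 0.268 CPM with WT. The third WT library exceeded the highest 4OHT library by less than 1 count, and the construct groups overlapped (log2 fold change -0.45, SE 0.460, edgeR adjusted p = 0.780). *Krt79* (ENSMUSG00000061397, chr15:101929332-101940324, minus strand), a type II keratin, was at 0.527, 0.430 and 0.201 CPM with 4OHT alone, at 0.207, 0.449 and 0.261 CPM with E444Q, and at 0.443, 0.524 and 0.829 CPM with WT. Its groups overlapped in each comparison. The log2 fold change between the constructs was -0.97 (SE 0.452) and did not pass the test (edgeR adjusted p = 0.406).

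**Figure D1:**
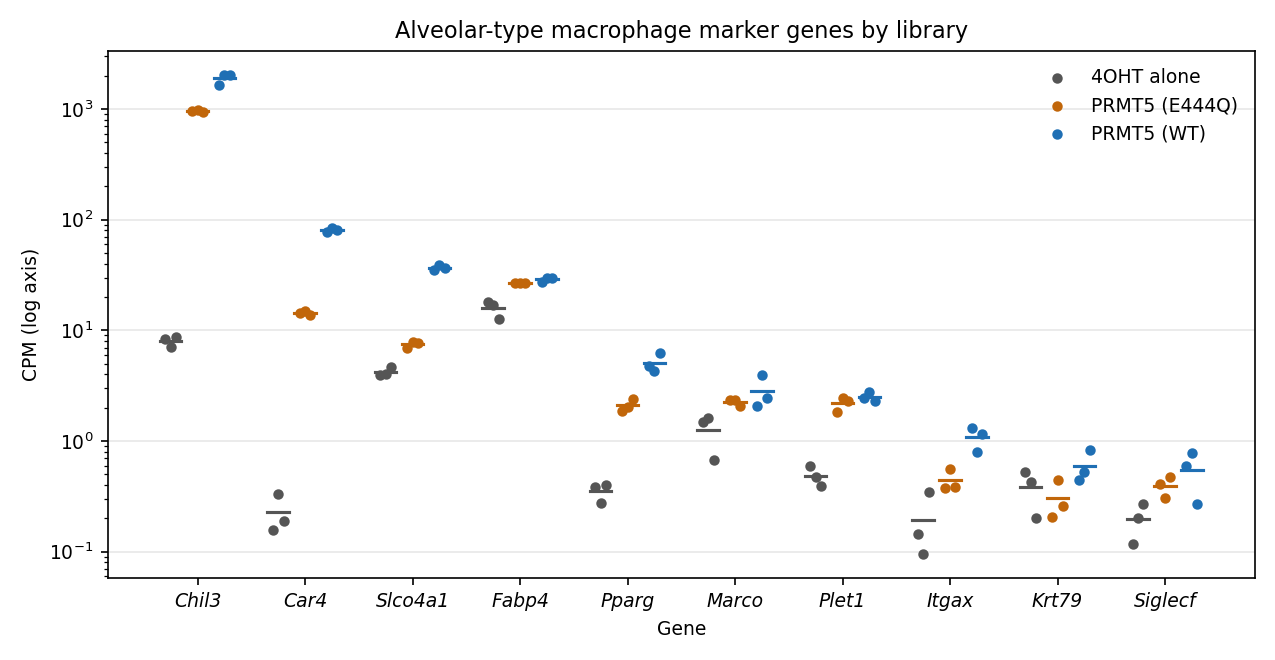
CPM of the 10 marker genes on a log axis, with a point for each library and a bar at the mean of the 3 libraries of 4OHT alone (grey), E444Q (orange) and WT (blue). *Chil3* and *Car4* show the widest steps from 4OHT alone, *Slco4a1* steps mainly between the constructs, and *Itgax*, *Krt79* and *Siglecf* lie at or below 1.30 CPM.

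Taken as a list, every member had an estimate below 0 between the constructs, with a median log2 fold change of -0.99 against 0.01 over all genes tested. The test called 4 of the 10 lower with E444Q (*Chil3*, *Car4*, *Slco4a1* and *Pparg*), against 1.06% of all genes called lower, and called 0 of the 10 higher, against 2.12% of all genes. DESeq2 called 5 lower (*Itgax* in addition; 1.9% of all genes) and 0 higher (3.18%). In edgeR 5 were lower at an unadjusted p under 0.05 (4.91% of all genes), and in 6 members all E444Q libraries were below all WT libraries, against 12.8% of all genes. Each of these counts of lower members includes *Chil3* and *Car4*, on whose levels in these same libraries the set was chosen. The counts are thus in part a description. Apart from *Chil3* and *Car4*, the edgeR calls were *Slco4a1* and *Pparg*. The plot of differences between the constructs shows these estimates beside those of general leukocyte genes.

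**Figure D2:**
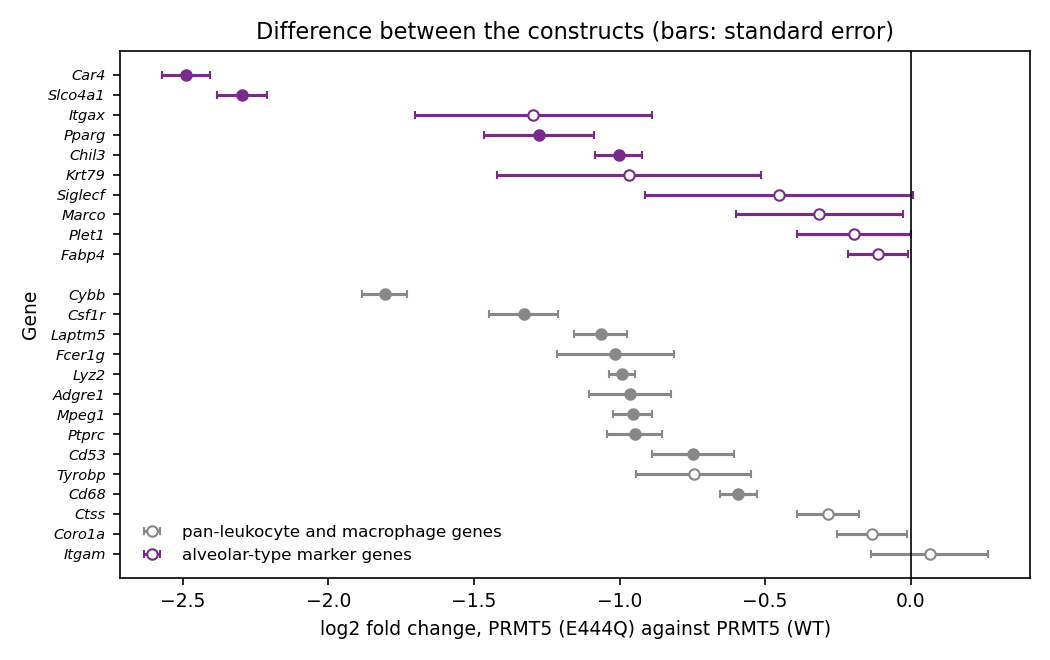
Log2 fold change between the constructs, E444Q against WT, with bars of 1 standard error, for the 10 marker genes (purple) and 14 general leukocyte and macrophage genes (grey), where filled points have an edgeR adjusted p under 0.05. *Car4* and *Slco4a1* lie at -2.49 and -2.30, beyond all the grey genes, while *Fabp4*, *Plet1* and *Marco* lie near 0.

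Against 4OHT alone the values of *Chil3* and *Car4* follow from how the set was chosen, and those of all members are given as a description. With E444Q, 9 of 10 members did not overlap 4OHT alone and lay above it (33.8% of all genes did so), with a median log2 fold change of 1.08 against 0.04 over all genes. With WT, 9 of 10 lay above without overlap (31.5% of all genes), *Siglecf* by less than 1 count, with a median of 2.41 against 0.02. *Krt79* was the member that overlapped in each case, with a log2 fold change of -0.32 (SE 0.461) with E444Q and 0.65 (SE 0.464) with WT. The log2 fold change of *Siglecf* was 1.00 (SE 0.486) with E444Q and 1.45 (SE 0.494) with WT. Both comparisons share the 4OHT libraries.

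The order of the members by level was set on CPM per kilobase of the principal transcript, which makes genes comparable. With 4OHT alone *Fabp4* led at 17.7 CPM per kb, before *Chil3* at 5.21, *Slco4a1* at 1.36, *Marco* at 0.651 and *Plet1* at 0.288. With E444Q *Chil3* led at 619 CPM per kb, before *Fabp4* at 30.0, *Car4* at 11.4 and *Slco4a1* at 2.42. With WT *Chil3* led at 1241 CPM per kb, before *Car4* at 64.2, *Fabp4* at 32.5, *Slco4a1* at 11.9 and *Pparg* at 2.89. *Car4*, at 0.181 CPM per kb with 4OHT alone, overlapped its neighbour *Krt79* there at 0.184, which in turn overlapped *Pparg* at 0.200. *Plet1* and *Marco* overlapped each other in both construct groups, as did *Siglecf*, *Krt79* and *Itgax*, and these neighbours were not separated by their spread.

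Levels relative to *Chil3* in the same library show whether the members kept a fixed ratio between the constructs, and 9 ratios were compared. *Car4* was at 1.49% to 1.53% of *Chil3* CPM with E444Q and at 4.00% to 4.69% with WT, and *Slco4a1* at 0.731% to 0.829% and 1.80% to 2.14%. Both ratios were lower with E444Q without overlap, by 1.49 and 1.30 on the log2 scale. The ratios of *Fabp4*, *Plet1* and *Marco* to *Chil3* were higher with E444Q without overlap, by 0.89, 0.79 and 0.73 on the log2 scale. In these 5 ratios the two-sided exact permutation p was 0.10, the smallest that 3 libraries against 3 allow, so p under 0.05 could not be reached. The ratios of *Pparg*, *Itgax*, *Siglecf* and *Krt79* overlapped between the constructs, with differences of -0.27, -0.30, 0.64 and 0.00.

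**Figure D3:**
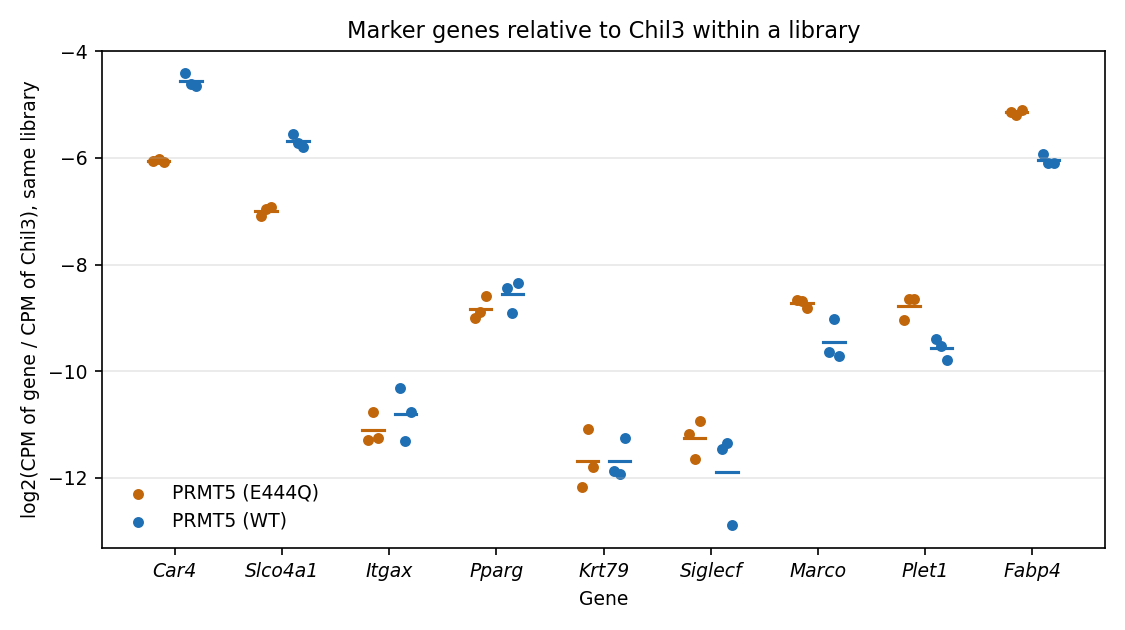
Log2 of the CPM of each member divided by the CPM of *Chil3* in the same library, with a point per library and a bar at the mean, for E444Q (orange) and WT (blue). *Car4* and *Slco4a1* lie lower with E444Q, *Fabp4*, *Plet1* and *Marco* lie higher, and the other 4 overlap.

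The gene nearest in sequence to *Chil3* is *Chil4*, and 28.9% of the 31-base words of the *Chil3* transcript (470 of 1629) also occur in *Chil4*. How reads with several alignments were counted is not given in the sources used here, so reads of that part could be split. *Chil4* averaged 0.0319, 0.137 and 0.122 CPM in the 3 groups, far below *Chil3*. Among the other chitinase genes, *Chit1*, the macrophage chitinase, averaged 0.827, 3.08 and 3.66 CPM and *Chil1*, another chitinase-like lectin, 3.50, 1.70 and 1.18 CPM with 4OHT alone, E444Q and WT. Of the 3 that were tested, 0 passed between the constructs with edgeR or with DESeq2 and 1 had an unadjusted p under 0.05 (edgeR adjusted p of 0.548 for *Chit1*, 0.185 for *Chil1* and 0.971 for *Chil4*), while *Chil5*, *Chil6* and *Chia1* were filtered out as too low.

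The patterns most like that of *Chil3* were found over the 9 libraries as the smallest mean absolute difference in log2 CPM after centring each gene, among 16076 genes with at least 1 CPM in a group. The 10 nearest were *Gm5150* (0.188), *5430427O19Rik* (0.308), *Gm43181* (0.365), *Ear2* (0.419), *Mcemp1* (0.447), *Usf2-ps1* (0.466), *Evi2b* (0.482), *Zfp987* (0.560), *Clec4e* (0.595) and *Gm10020* (0.637). Of these, *Ear2*, a ribonuclease of eosinophils and alveolar macrophages, averaged 0.416, 34.5 and 52.7 CPM, and *Mcemp1*, a myeloid membrane protein, 0.107, 8.14 and 16.01 CPM. *Gm5150*, *5430427O19Rik*, *Gm43181*, *Usf2-ps1*, *Evi2b* and *Zfp987* had 0 counts in all 4OHT libraries, so their place rests partly on the prior count of 1. Among the members, *Car4* ranked 16 at 0.665 and *Pparg* 159 at 1.86, while *Plet1*, *Slco4a1* and *Itgax* ranked 328, 426 and 433, and *Marco* and *Fabp4* 1327 and 1962. Since the set was chosen on *Chil3* and *Car4* in these libraries, the rank of *Car4* follows in part from that choice. *Siglecf* and *Krt79*, under 1 CPM in each group mean, were not ranked.

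Other genes of the alveolar macrophage program moved in both directions between the constructs. Of 22 tested, 8 were lower and 4 higher with E444Q than with WT (1.06% and 2.12% of all genes), with a median of -0.11 against 0.01 over all genes. *Lpl*, the lipase that releases fatty acids from lipoproteins, was at 5.41 CPM with 4OHT alone, 80.6 with E444Q and 251 with WT (log2 fold change between the constructs -1.64, edgeR adjusted p = 9.25e-10). The tetraspanin *Cd9* averaged 112, 152 and 183 CPM, the cholesterol exporter *Abcg1* 51.0, 74.6 and 96.9 CPM and *Lonrf3* 55.6, 107 and 110 CPM. The 4 genes higher with E444Q than with WT were *Ctsk*, *Ear6*, *Perp* and *Flt1*. Against 4OHT alone 16 of 22 were called higher and 4 lower with E444Q, and 15 higher and 5 lower with WT. Lower with both were *Olr1* (109, 15.7 and 14.1 CPM in the 3 groups), *Perp* (67.2, 10.8 and 7.25 CPM), *Flt1* (56.0, 35.6 and 29.0 CPM) and *Il1rn* (5.00, 2.53 and 2.03 CPM). *Ctsk* (21.6, 33.8 and 16.2 CPM) was lower with WT and higher with E444Q. Over all genes, 29.5% were called higher and 26.5% lower with E444Q, and 29.9% higher and 27.9% lower with WT.

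Of 18 tested genes of GM-CSF and TGF-beta signalling and of the transcription factors that act with PPARG, 4 were lower and 1 higher with E444Q than with WT (1.06% and 2.12% of all genes), with a median of -0.13. The lower genes, named after their values were seen, were *Csf2rb*, the signalling chain of the GM-CSF receptor, *Csf2rb2*, a close copy of it for which reads could be split, *Spi1*, which encodes PU.1, and *Nr1h3*, which encodes the oxysterol receptor LXR-alpha. *Csf2rb* averaged 2.94, 12.2 and 22.4 CPM in the 3 groups (log2 fold change between the constructs -0.87, edgeR adjusted p = 0.000267) and *Csf2rb2* 1.66, 2.67 and 6.32 CPM (-1.24, adjusted p = 0.00114). *Spi1* averaged 0.589, 9.54 and 18.9 CPM (-0.99, edgeR adjusted p = 0.00903) and *Nr1h3* 1.94, 3.35 and 5.401 CPM (-0.69, adjusted p = 0.0428). The higher gene was *Bhlhe40*, a transcription factor, at 47.4, 19.02 and 14.8 CPM. *Rxra*, the partner of PPARG in DNA binding, averaged 152, 151 and 163 CPM in the 3 groups, and *Tgfbr2*, a TGF-beta receptor, 285, 102 and 90.1 CPM. *Klf4* averaged 153, 91.8 and 75.9 CPM and *Cebpb* 124, 51.5 and 56.6 CPM, and *Rxra*, *Tgfbr2*, *Klf4* and *Cebpb* did not pass between the constructs. *Csf2*, the gene of GM-CSF and also on the list, was filtered out as too low. It had 22, 7 and 35 counts with 4OHT alone, 11, 15 and 0 with E444Q and 0 in all WT libraries. Against 4OHT alone 7 genes were called higher and 8 lower with each construct. Of all genes, 29.5% were called higher and 26.5% lower with E444Q, and 29.9% higher and 27.9% lower with WT. Of 12 genes of lipid handling that PPARG regulates, 5 were lower and 1 higher between the constructs (1.06% and 2.12% of all genes), with a median of -0.19. The lower genes include *Lpl* and *Abcg1*, already counted with the alveolar macrophage program above, and *Plin2*, which coats lipid droplets. *Plin2* averaged 237, 119 and 157 CPM (log2 fold change -0.40, edgeR adjusted p = 0.000116). *Abca1* averaged 187, 147 and 160 CPM and *Cpt1a*, which brings fatty acids into mitochondria, 258, 106 and 108 CPM. Against 4OHT alone, 7 of the 12 were called higher and 5 lower with E444Q, and 6 higher and 5 lower with WT.

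General leukocyte and macrophage genes moved beside the members, and their part in the members' values was not tested. Of 14 tested, 10 were lower and 0 higher with E444Q than with WT (1.06% and 2.12% of all genes). The median was -0.95, and DESeq2 gave the same counts. The summed level of the 14 was 191 to 204 CPM with 4OHT alone, 1228 to 1262 CPM with E444Q and 2444 to 2558 CPM with WT. All 14 were called higher with each construct than with 4OHT alone (medians 3.05 and 3.90), against 29.5% of all genes with E444Q and 29.9% with WT. Lysozyme, *Lyz2*, averaged 151, 944 and 1878 CPM, where *Chil3* averaged 8.03, 952 and 1909 CPM. *Cybb*, a subunit of the phagocyte oxidase, averaged 2.40, 51.1 and 179 CPM, *Mpeg1* 6.66, 74.3 and 144 CPM, and *Laptm5* 3.56, 36.2 and 75.9 CPM. Genes of complement-type resident macrophages went another way. Of 10 tested, 7 were called lower and 1 higher with each construct than with 4OHT alone (medians -1.49 and -1.72). Of all genes, 26.5% were called lower and 29.5% higher with E444Q, and 27.9% lower and 29.9% higher with WT. Among the 10, *Apoe* averaged 51.7, 11.1 and 9.83 CPM and *Gpnmb* 148, 50.4 and 56.5 CPM. The gene called higher was *Mrc1*, the mannose receptor, at 5.05, 26.3 and 33.3 CPM, which alveolar macrophages also express. Between the constructs 1 of the 10 was lower (*Mrc1*, edgeR adjusted p = 0.0215) and 0 higher, and 3 had an unadjusted p under 0.05.

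**Figure D4:**
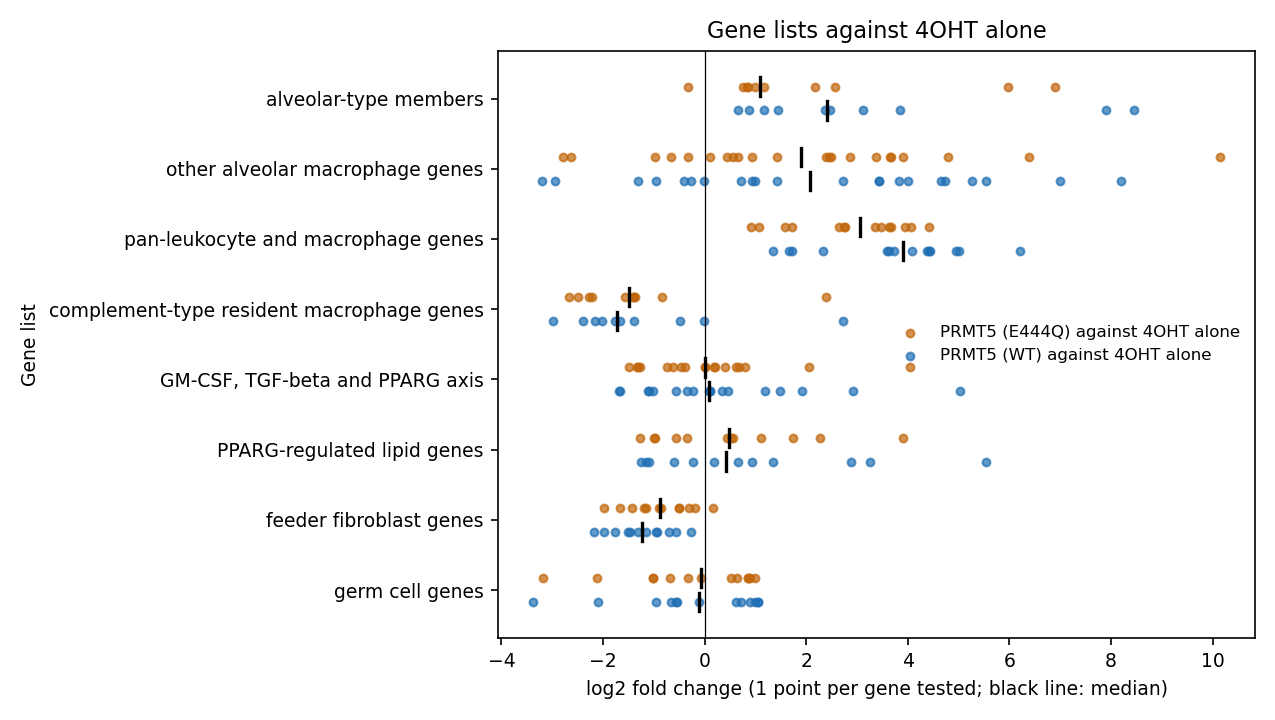
Log2 fold change against 4OHT alone for E444Q (orange) and WT (blue), with a point per gene tested and a black line at the median, for the 10 marker genes and 7 other gene lists. All general leukocyte genes lie above 0, most complement-type macrophage and fibroblast genes lie below 0, and germ cell genes lie on either side.

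Several members are also used as markers of other cells, and the rest of those marker lists was measured. Between the constructs, edgeR called 1.06% of all genes lower and 2.12% higher with E444Q than with WT. Some genes, among them *Lpl*, *Ear2* and *Mrc1*, are on several lists. Of 7 eosinophil genes besides *Siglecf*, 5 were tested, of which 1 was lower and 1 higher between the constructs. Their sum was 0.547 to 1.32 CPM with 4OHT alone, 36.3 to 39.1 CPM with E444Q and 54.2 to 56.9 CPM with WT, with the constructs nearly all of it *Ear2*, while the receptor *Il5ra* had 0 counts in all 9 libraries. Of 8 adipocyte genes besides *Pparg* and *Fabp4*, 6 were tested and 1 was lower between the constructs (*Lpl*), with a sum of 6.06 to 7.73, 81.5 to 86.4 and 253 to 257 CPM in the 3 groups, again mostly *Lpl*, while *Lep* and *Cfd* had 0 counts in all WT libraries. Of 7 endothelial genes, 0 passed between the constructs with edgeR or DESeq2 and 0 had an unadjusted p under 0.05, with sums of 17.4 to 20.9, 17.8 to 18.3 and 18.8 to 20.6 CPM (*Pecam1* 9.74, 7.34 and 7.86 CPM). Of 11 epithelial genes besides the members, 6 were tested, and 0 passed between the constructs with either tool or at an unadjusted p under 0.05, with *Epcam* at 137, 115 and 116 CPM, which undifferentiated spermatogonia also express. Of 9 dendritic cell genes besides *Itgax*, 7 were tested, with the same counts of 0, sums of 15.7 to 16.6, 44.7 to 45.4 and 46.9 to 49.6 CPM and *Zbtb46* at 8.86, 31.9 and 34.2 CPM. Against 4OHT alone, 1 of the 6 epithelial genes was called higher and 2 lower with each construct. The highest log2 fold change was 5.18 with E444Q and 4.95 with WT. Of the 7 dendritic cell genes, 4 were called higher and 1 lower with each construct, with highest values of 6.21 and 6.00. Over all genes, 29.5% were called higher and 26.5% lower with E444Q, and 29.9% higher and 27.9% lower with WT. Of 11 neutrophil genes, 4 were tested, of which 0 passed between the constructs with edgeR, 1 with DESeq2 and 1 at an unadjusted p under 0.05, with sums between 1.85 and 4.15 CPM over all libraries and *Retnlg* at 0 counts in each. Of 8 monocyte genes, 5 were tested and 4 were higher with E444Q than with WT. These were *F13a1* (log2 fold change 1.14), *Plac8* (0.58), *Vcan* (0.45) and *Fn1* (0.29), of which *Fn1*, at 4957, 1822 and 1488 CPM, and *Vcan*, at 187, 130 and 94.9 CPM, are also expressed by fibroblasts.

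The cells of the culture itself were measured in the same way. For all genes, the shares called between the constructs were 1.06% lower and 2.12% higher with E444Q than with WT. Against 4OHT alone they were 29.5% higher and 26.5% lower with E444Q, and 29.9% higher and 27.9% lower with WT. Of 13 germ cell genes, 0 passed between the constructs with edgeR, 1 with DESeq2 and 5 at an unadjusted p under 0.05, and 6 were called higher and 6 lower with each construct than with 4OHT alone. Their log2 fold changes against 4OHT alone ran from -3.18 to 0.99 with E444Q and from -3.38 to 1.06 with WT. The medians were -0.06 and -0.11. *Dazl* averaged 381, 687 and 791 CPM, *Uchl1* 391, 706 and 724 CPM, *Ddx4* 298, 551 and 590 CPM and *Dmrt1* 327, 471 and 499 CPM. These genes lie on the higher side and do not stand for the list. Of 12 fibroblast genes, 11 were higher with E444Q than with WT, with a median of 0.35, and 11 and 12 were called lower with E444Q and WT than with 4OHT alone. Their sum was 6439 to 7453 CPM with 4OHT alone, 3728 to 3742 CPM with E444Q and 2858 to 2954 CPM with WT. The collagen genes *Col1a2* and *Col1a1* averaged 1458, 781 and 585 CPM and 1341, 742 and 599 CPM, *Col3a1* 733, 595 and 452 CPM and *Vim*, the filament protein vimentin, 1710, 435 and 377 CPM. The part of these shifts in the members' values was not tested.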

How the data were processed

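RNA-seq libraries of 4OHT-treated SSCs were analysed from whole-number counts per gene, which the authors deposited without normalization for 53801 genes. Per the study's methods and the submitters' processing notes, reads were trimmed with BBmap and Trimmomatic 0.39, aligned to GRCm38 with HISAT2 2.2.1 and quantified with StringTie 2.2.1. How the output became whole numbers, the strand setting and the treatment of reads with several alignments are not given in the sources used here.

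The counts were tested in R 4.3.3 with edgeR 4.0.16 (filterByExpr with a minimum count of 10 and a minimum total of 15, TMM scaling, quasi-likelihood test with the group as the only factor over 9 libraries, common biological coefficient of variation 0.155). Benjamini-Hochberg adjustment ran over 22452 genes, with a threshold of 0.05. Fold changes against 4OHT alone are given for the marker genes without p-values. Alternatives were DESeq2 1.42.0, its size factors, no filter, counts divided by 4, only the libraries compared, a replicate block, and each library left out. Tables were made in Python 3.11.15 with pandas 2.3.3 and scipy 1.17.1, and the fits were tested on simulated data. Coordinates and principal transcripts came from GENCODE vM21, which holds 53706 of the identifiers, and upstream sequences from RefSeq. The table has 125 symbols with more than 1 row, so genes were handled by identifier.

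The marker genes and the gene lists were chosen with earlier results of these data known. The text names all marker genes, *Prmt5*, the chitinase genes, genes among the 4 of each list with the highest mean CPM (at least 1), markers at or near 0, and the 10 genes closest to *Chil3*. The values of 1 such gene are not reported here. Other genes, including those with 0 counts with 4OHT alone, were named after their values were seen. No library repeated another (chi-square per gene of at least 3.29 between replicates).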

Additional observations from a re-analysis of the deposited data

How the results depend on the processing

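Between E444Q and WT, 712 genes passed with all 9 libraries in the edgeR fit. The count was 1140 with the DESeq2 test and 1565 when only the 6 libraries compared were fitted, and it ranged from 400 to 1099 when a library was left out (1099 without 4OHT library 3, 432, 400 and 411 without E444Q library 1, 2 or 3, and 472 without WT library 3). The cause was not tested. Replicate numbers did not pair the libraries: deviations of same-numbered libraries correlated at -0.0195 to 0.0443 and those of others at -0.0389 to 0.0389, and with a replicate block 674 genes and 4 marker genes passed between the constructs, 12443 with E444Q against 4OHT alone (12571 without the block) and 12807 with WT against 4OHT alone (12967). Of the marker genes, *Chil3*, *Car4*, *Slco4a1* and *Pparg* passed between the constructs under every alternative, and *Itgax* also passed with DESeq2 (adjusted p = 0.0433), with counts divided by 4 (0.0313), with only the 6 libraries compared (0.0182) and without 4OHT library 3 (0.0348). No estimate changed direction under the alternatives run. At this depth *Itgax*, *Siglecf* and *Krt79* rested on 8 to 213 counts per library, which limits what can be said of them.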

Other observations

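A few genes outside the lists were absent with 4OHT alone. Of the genes tested, 134 had 0 counts in all 3 libraries with 4OHT alone, and 8 of these averaged at least 1 CPM with both constructs. *Ms4a8a*, a membrane protein of the family that includes CD20, averaged 8.26 CPM with E444Q and 12.9 CPM with WT, and *Wfdc21*, a small secreted protein, 7.75 and 11.8 CPM. The other 6 were *1810011H11Rik* (2.82 and 3.19 CPM), *Evi2b* (1.72 and 3.10 CPM), *Gm14513* (3.13 and 2.78 CPM), *Zfp987* (2.02 and 2.204 CPM), *Gm20431* (1.24 and 2.15 CPM) and *Usf2-ps1* (1.65 and 1.74 CPM). No fold is given for them, since the group with 4OHT alone was at 0.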
